A study of Mus musculus with 6 samples.

Results

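The lysosomal proteases and the proton pump that acidifies the lysosome were followed at the RNA level in macrophages sorted from 2 peritoneal fat tissues of the mouse. Genes were chosen by symbol and by measured values: every symbol of the deposited table that begins with Cts (cathepsins), Atp6v or Atp6ap (vacuolar H+-ATPase and its accessory proteins), or that is Lamp1 to Lamp5, and that had an FPKM (fragments per kilobase of transcript, scaled to the mapped fragments of the library) of 1 or more in some library. Of 53 matching symbols, 37 met this minimum, out of 13064 genes that met it in a table of 23946. They were 14 cathepsins, 21 pump genes and the 2 genes Lamp1 and Lamp2. The minimum was reached in every library by 31 of them. Just inside it stood Atp6v1c2, with a highest FPKM of 1.27, and just outside it Lamp3, with 0.691. Of the 16 symbols below it, 10 were listed at 0 in every library, and 9 were the cathepsins of the rodent placenta.

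The libraries came from C57BL/6 mice, female and 6 to 8 weeks old, and were made from cells sorted as CD45+CD11b+F4/80+. OM denotes the omentum and MY the mesentery, each taken from naive mice (0h) and at 24 h and 7 d after injection of ID8, a mouse ovarian carcinoma line, into the peritoneal cavity. Tissues of 9 mice were processed as 3 groups of 3 mice, and the omenta of 3 mice make up a data point. Each of the 6 conditions had 1 library. No value below has a replicate check, and each difference describes a pair of libraries. The number of reads behind each FPKM is not listed, and the methods give reads per library only as a range. No counting interval was computed. FPKM is divided by transcript length, so levels of different genes are set side by side on that scale. Differences are log2 ratios of (FPKM + 1), which understate the change of low genes, and a gene was counted as apart at 2-fold or more.

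Lysosomes degrade what a macrophage takes up. Cathepsins are their main proteases, mostly cysteine proteases of the papain family, with a few aspartic and serine ones. The vacuolar ATPase couples ATP hydrolysis in its cytosolic V1 sector to the movement of protons through its membrane sector, V0, and most cathepsins need the low pH it makes. Lamp1 and Lamp2 are heavily glycosylated proteins that line the lysosomal membrane. In macrophages and dendritic cells the same system processes antigen, and cathepsins that are secreted cleave extracellular matrix. Transcription factors of the TFEB family bind an element with the core TCACGTGA near the start sites of many lysosomal genes.

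The sorting marker gene of F4/80 (listed under its older symbol Emr1) had an FPKM of 20.5 to 135, and all 8 macrophage markers measured were at 1 or more throughout. Markers of other cells were present too. The summed FPKM of 10 NK and T cell markers was 513 in OM 0h, 32.8 in OM 24h and 320 in OM 7d, against 3267, 1964 and 2015 in the mesenteric libraries. That of 9 neutrophil markers was 7648, 17766 and 20116 in the omentum and 882, 722 and 222 in the mesentery. Markers of B cells (524 to 3967) and dendritic cells (97.6 to 1352) were measured in all 6 libraries. Mast cell markers summed to 4.21 to 54.0. Mesothelial markers (72.6 to 857) and fibroblast markers (202 to 1105) were measured in the omental libraries and summed to at most 2.49 in the mesenteric ones. In such sorted populations fewer cells of a type and less RNA per cell cannot be told apart.

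Both groups were abundant RNAs. The 14 cathepsins held 0.458% (MY 0h) to 1.08% (OM 24h) of a library's summed FPKM, and the 21 pump genes held 0.305% (OM 0h) to 0.419% (MY 24h). The summed FPKM of the cathepsins was 3048 in OM 0h, 7696 in OM 24h and 2590 in OM 7d, and 2411, 3145 and 2710 in MY. For the pump the sums were 1891, 2848 and 1836 in the omentum and 1905, 2396 and 1917 in the mesentery. OM 24h therefore stood apart by more in the proteases, at 2.52 times the naive omental sum, than in the pump, at 1.51 times. The summed FPKM of all genes was also higher in OM 24h, at 713863 against 620700 in OM 0h. As a share of it, the cathepsins were at 0.491% in OM 0h and 1.08% in OM 24h. The pump was at 0.305% and 0.399%. Lamp1 and Lamp2 together were at 372, 944 and 382 in the omentum and 369, 606 and 489 in the mesentery.

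**Figure D1:**
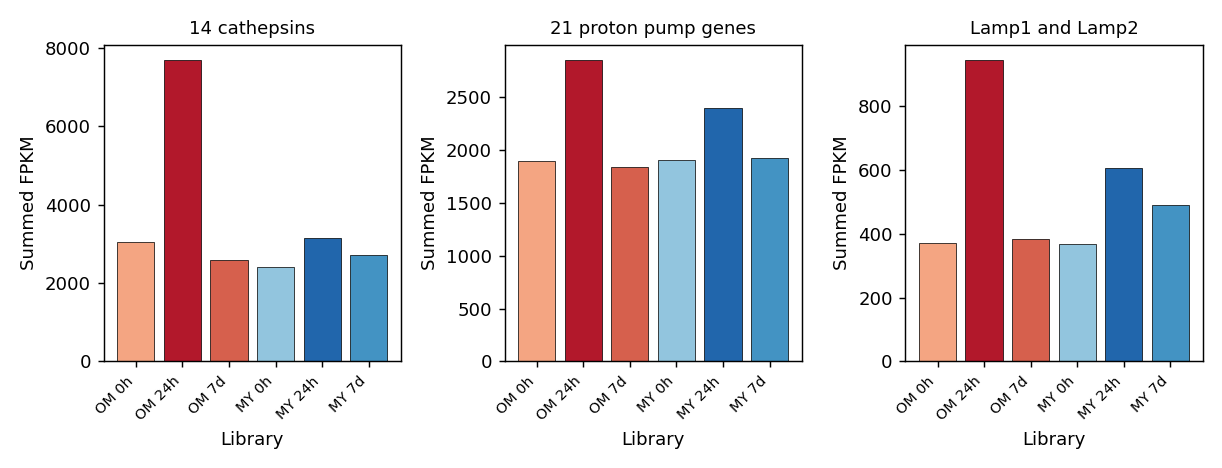
Summed FPKM of the 14 cathepsins, the 21 proton pump genes and Lamp1 with Lamp2 in each of the 6 libraries (1 per condition, no error bars); each panel has its own axis from 0. The omental library at 24 h has the highest sum in all 3 panels, 7696 for the cathepsins and 2848 for the pump, and the mesenteric library at 24 h is the next highest in each.

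Stretches of promoter are shown for the 5 members with the TFEB core TCACGTGA, and for Atp6v0b and Lamp1 because they hold several copies of its inner CACGTG alone. RefSeq promoters of the GRCm38.p6 build, each 250 bases before to 50 after a start site, were on hand for 26 of the 37 members. The letters TCACGTGA were found in 5 of these 26 genes (19.2%): Ctsa, Ctsd, Atp6v0d1, Atp6v0e and Atp6v1a. Among all 27025 genes with a promoter the share was 1.12%, and among the 9774 of them that met the FPKM minimum it was 2.22%. The shorter CACGTG, which lies within the longer motif, was found in 9 of 26 members (34.6%), against 8.09% and 11.5%. Those 9 were Ctsa, Ctsd, Ctsf, Ctsl, Atp6v0b, Atp6v0d1, Atp6v0e, Atp6v1a and Lamp1. Both motifs read the same on either strand. Of the 15 symbols below the minimum with a promoter, TCACGTGA was found in 0 and CACGTG in 1. A match describes letters and not bound protein. The stretches below run 5′ to 3′ on the strand of the gene, with the motif in capitals. They lie before the start site, except in Atp6v0d1 and Atp6v0e, where the 30 bases span it.
Ctsa, chr2:164833743-164833772, plus strand: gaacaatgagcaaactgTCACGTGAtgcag
Ctsd, chr7:142387908-142387937, minus strand: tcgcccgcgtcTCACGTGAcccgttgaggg
Atp6v1a, chr16:44139320-44139419, minus strand: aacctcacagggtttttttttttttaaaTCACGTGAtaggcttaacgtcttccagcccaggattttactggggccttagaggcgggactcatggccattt
Atp6v0d1, chr8:105566055-105566084, minus strand: ccaggccctactgcggTCACGTGAgacgcg
Atp6v0e, chr17:26676386-26676415, plus strand: ttagcgcgccgaTCACGTGAgcctctgttg
Atp6v0b, chr4:117887330-117887409, minus strand: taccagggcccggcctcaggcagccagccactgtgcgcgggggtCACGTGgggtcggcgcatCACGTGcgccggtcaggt
Lamp1, chr8:13159081-13159160, plus strand: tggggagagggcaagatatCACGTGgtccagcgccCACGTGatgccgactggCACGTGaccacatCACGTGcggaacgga
Lamp1 had 4 copies of CACGTG in this stretch and Atp6v0b had 2. Of the 5 genes with TCACGTGA, Ctsd, Ctsa and Atp6v1a were higher by 2-fold or more in OM 24h than in OM 0h. By the plain ratio of FPKM, Atp6v0e was at 1.28 times and Atp6v0d1 at 1.09 times its naive level. Of the genes with CACGTG alone, Ctsl, Ctsf and Lamp1 were higher by 2-fold or more and Atp6v0b was at 1.98 times by plain FPKM. No relation between motif and change was tested.

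The cysteine cathepsins included the most abundant protease RNA. Ctss, whose enzyme trims the invariant chain of MHC class II and stays active at neutral pH, was at FPKM 892 in OM 0h, 2330 in OM 24h and 694 in OM 7d, and at 530, 892 and 618 in the mesenteric libraries. Ctsz, a carboxypeptidase, was at 665, 1079 and 563 in the omentum and 540, 727 and 606 in the mesentery. Ctsh, an aminopeptidase, was at 442, 737 and 328 in OM and 227, 320 and 297 in MY. Each of these was highest in OM 24h, and Ctsh was the only one of the 3 with no overlap between the tissues.

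Ctsb, an endopeptidase and dipeptidase, was at FPKM 230, 983 and 201 in the omentum and 209, 304 and 278 in the mesentery. Ctsc, which activates the serine proteases of granules, was at 329, 797 and 240 against 136, 143 and 165. Ctsl, an endopeptidase also active in the thymus, was at 20.3, 146 and 88.3 against 18.3, 36.5 and 24.1. All 3 were higher by 2-fold or more in OM 24h than in OM 0h. In the mm9 annotation of GENCODE M1 the end of Ctsb overlaps Fdft1 on the opposite strand, over 14.9% of the 75-base stretches of Ctsb, and those of Ctsa overlap Neurl2 and Pltp over 12.3%. Whether the counting used strand is not given in the sources used here, so reads there may belong to either gene. Ctsl differed from the other abundant proteases at 7 d, since it was still at 4.36 times its naive omental level while Ctsb and Ctsc were below theirs.

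Ctsf, another endopeptidase of this family, was low throughout, at FPKM 4.60, 17.9 and 21.7 in the omentum and 5.75, 15.6 and 8.09 in the mesentery. By the ratio of (FPKM + 1) it was the only member at least 2-fold higher at 24 h in both tissues. By plain FPKM Lamp2 also was, at 2.25 times its naive level in the omentum and 2.01 times in the mesentery. Ctso went the other way in the omentum, where it was at 38.7, 19.6 and 27.6, against 18.2, 25.1 and 27.9 in the mesentery. Ctsk, the collagenase of osteoclasts, was at 0.827, 0.361 and 2.90 against 0.191, 0.407 and 0.0301, so that 5 of its 6 values were below 1. Fibroblast markers summed to 1105 in OM 7d, where Ctsk was highest, and to 314 in OM 0h. Their part in its level was not tested.

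Of the 2 aspartic cathepsins, Ctsd (mm9, chr7:149557053-149573943, minus strand) was the abundant one. Its FPKM was 261 in OM 0h, 1264 in OM 24h and 234 in OM 7d, and 404, 397 and 398 in the mesentery. The 3 mesenteric values lay close together, and the omental ones lay below them at 0h and 7 d and above them at 24 h. Ctse, which in immune cells is found in endosomes, was at 10.3, 6.54 and 18.0 in the omentum and 3.75, 5.68 and 11.3 in the mesentery.

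Of the 2 serine cathepsins, Ctsa, a carboxypeptidase that also protects β-galactosidase and neuraminidase in the lysosome, was at FPKM 114, 312 and 113 in the omentum and 96.9, 156 and 136 in the mesentery. Ctsg, a serine protease of neutrophil granules, was at 11.6, 1.41 and 34.4 in the omentum. In the mesentery it was listed at 0 in the naive and 7 d libraries and at 0.0560 in MY 24h. Elane and Mpo, of the same granules, followed the same order in the omentum, at 118, 39.4 and 235 for Elane and 84.0, 8.49 and 117 for Mpo. Both were at or below 1.41 in the mesentery. The other neutrophil markers did not share that order, since S100a8 was at 3020, 7826 and 8381.

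Ctsw, which marks NK cells and cytotoxic T cells, ranged 103-fold from its lowest to its highest library. It was at FPKM 28.1, 2.16 and 25.8 in the omentum and 221, 124 and 141 in the mesentery. All mesenteric values were above all omental ones. The 10 NK and T cell markers showed the same separation, each of them being lower in every omental than in every mesenteric library and lowest in OM 24h. Gzma was at 142, 2.37 and 57.5 against 1092, 667 and 449. The part of other cells in the Ctsw and Ctsg levels was not tested.

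**Figure D2:**
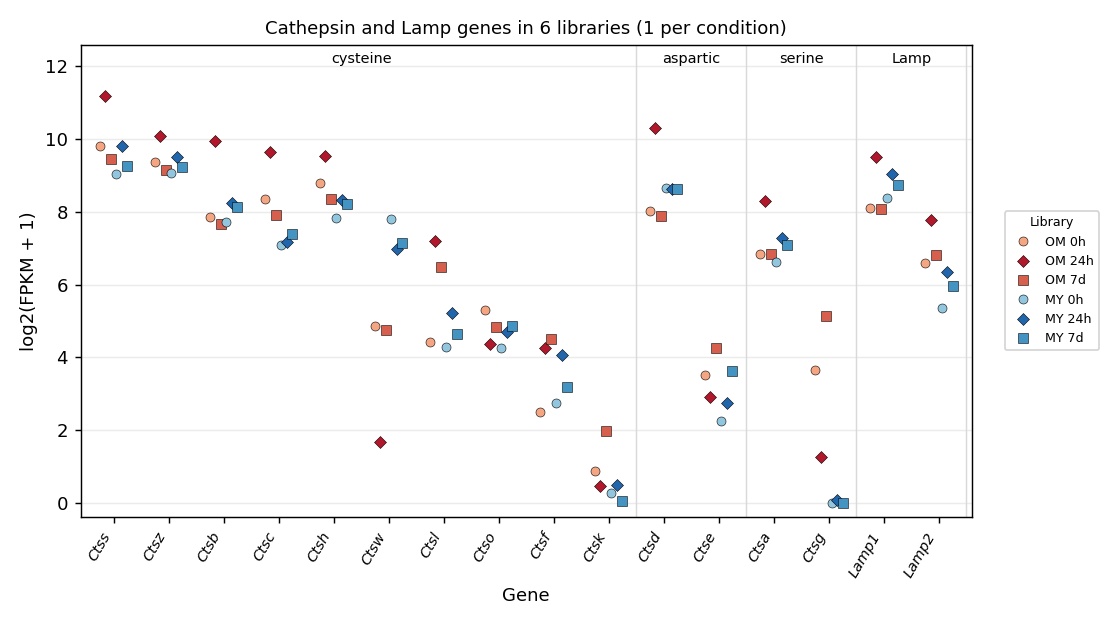
Level of each cathepsin and of Lamp1 and Lamp2 in the 6 libraries, as log2(FPKM + 1), grouped by protease class and ordered by highest level; 1 point is 1 library, so there are no error bars. OM 24h (dark red diamonds) is the highest point for 8 of the 14 cathepsins and for both Lamp genes, and the lowest for Ctsw.

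**Figure D3:**
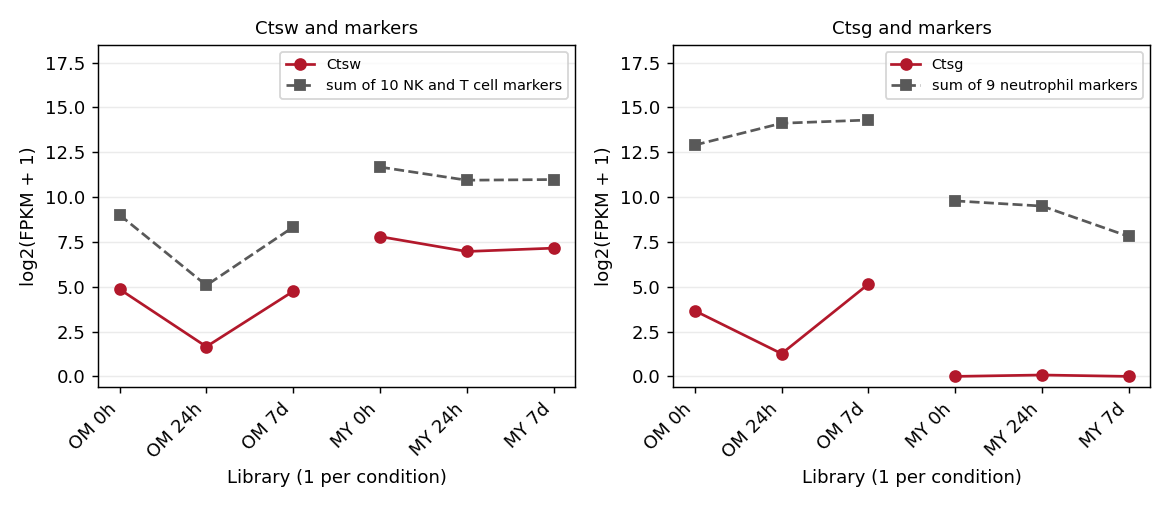
Level of Ctsw and Ctsg (red) as log2(FPKM + 1) by library, beside the same value for the sum of 10 NK and T cell markers and of 9 neutrophil markers (grey); lines join the 3 times of a tissue, with 1 library per condition. Ctsw and the NK and T cell sum are both lowest in OM 24h, and Ctsg is at or near 0 in the mesentery, where the neutrophil sum is 222 to 882.

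Lamp1 was at FPKM 275, 727 and 270 in the omentum and 329, 526 and 428 in the mesentery. Lamp2, needed for fusion of autophagosomes with lysosomes and for chaperone-mediated autophagy, was at 96.4, 217 and 112 against 39.6, 79.7 and 61.3. The lowest omental value of Lamp2 was above the highest mesenteric one, while those of Lamp1 overlapped. Lamp1 made up 70.7% to 77.0% of the summed FPKM of the pair in the omentum and 86.8% to 89.3% in the mesentery.

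In the V1 sector the most abundant RNA was Atp6v1f (the F subunit of the central stalk), at FPKM 302, 357 and 285 in the omentum and 359, 438 and 325 in the mesentery. Atp6v1e1, which encodes the E subunit of the peripheral stalks, was at 129, 192 and 122 against 145, 211 and 131. Atp6v1g1, its G partner, was at 127, 199 and 130 against 140, 180 and 140. For all 3 the 24 h library was the highest of each tissue, and the omental and mesenteric values overlapped.

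The catalytic A subunit, Atp6v1a, was at FPKM 22.1, 48.7 and 28.5 in the omentum and 26.4, 47.6 and 37.2 in the mesentery. The B subunit of the same ring, Atp6v1b2, was at 78.0, 137 and 80.7 against 96.4, 144 and 99.3. By the ratio of (FPKM + 1), Atp6v1a was the only gene of the V1 and V0 sectors at least 2-fold higher in OM 24h than in OM 0h. By plain FPKM the very low Atp6v0d2 and Atp6v0e2 were at 3.06 and 2.74 times their naive omental levels. The D subunit of the rotor, Atp6v1d, was at 59.6, 73.8 and 54.5 against 110, 146 and 108, with every omental value below every mesenteric one. Atp6v1h, the regulatory H subunit, ranged from 39.4 to 54.0.

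In the V0 sector Atp6v0e was the most abundant pump RNA in 5 of the 6 libraries, at FPKM 454, 579 and 411 in the omentum and 362, 436 and 398 in the mesentery. Atp6v0b, a subunit of the proton-carrying rotor ring, was at 158, 313 and 181 against 181, 227 and 141. Atp6v0c, which forms most of that ring, was at 90.3, 132 and 73.5 against 51.1, 56.2 and 51.3. Its omental values were all above its mesenteric ones. The 2 accessory genes had like levels, Atp6ap1 at 134, 202 and 126 against 94.4, 116 and 132 and Atp6ap2, the prorenin receptor, at 80.0, 115 and 75.5 against 62.4, 84.0 and 79.0.

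The values of Atp6v0c and of its copy Atp6v0c-ps2 are uncertain, because reads can fit both. In mm9, the build the study used, a copy on chromosome 6 (chr6:37755999-37757078, plus strand) held 898 of the 1109 stretches of 75 bases (81.0%) in the longest Atp6v0c transcript. The gene itself lies at chr17:24300833-24306647 on the minus strand. Atp6v0c-ps2, which RefSeq lists as a transcribed pseudogene on chromosome 6, was at FPKM 51.6, 247 and 84.3 in the omentum and 62.2, 102 and 83.2 in the mesentery. The FPKM of the pair added up to 142, 379 and 158 in the omentum and 113, 158 and 135 in the mesentery. The copy made up 36.4%, 65.3% and 53.4% in the omentum and 54.9%, 64.5% and 61.9% in the mesentery of it. How the reads were divided between them was not tested.

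Many pump subunits have another gene that is used in specialised cells such as osteoclasts, renal intercalated cells or sperm. In these libraries the ubiquitous form dominated at each such position with the exception of subunit a. Atp6v1b2 and Atp6v1e1 accounted for 100% of the B and E FPKM, since Atp6v1b1 and Atp6v1e2 were listed at 0 throughout. Atp6v1g1 held 98.1% to 99.4% of the G subunit, with Atp6v1g2 at 0.830 to 2.46 and Atp6v1g3 at most at 0.257. Atp6v1c1 held 97.6% to 100% of the C subunit, at 52.0, 66.8 and 51.8 in the omentum and 56.5, 57.7 and 52.5 in the mesentery. Its partner Atp6v1c2 was at 1.27 in OM 0h, 0.329 in OM 7d, at most 0.0405 in the mesentery, and listed at 0 in both 24 h libraries.

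Atp6v0d1 held 95.7% to 99.4% of the d subunit, at FPKM 68.0, 73.9 and 40.3 in the omentum and 75.5, 64.2 and 45.6 in the mesentery. Atp6v0d2, the form known from osteoclasts, was at 0.433, 1.32 and 0.624 against 2.06, 1.53 and 2.06. Atp6v0e held 98.4% to 100% of the e subunit, and Atp6v0e2 was at 1.18, 3.24 and 6.60 in the omentum and at most 0.154 in the mesentery. The minor forms thus separated the tissues in opposite directions at very low levels: Atp6v0d2 was lower, and Atp6v0e2 higher, in every omental than in every mesenteric library.

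For subunit a, which anchors the peripheral stalks and steers the pump to its compartment, 3 genes shared the position. Tcirg1, the a3 form of lysosomes and osteoclasts, does not carry an Atp6 symbol and was not a member. It held 38.8% to 57.7% of the FPKM of the subunit. Atp6v0a2 held 21% to 46.6%, at FPKM 27.0, 22.4 and 21.2 in the omentum and 26.0, 22.0 and 30.8 in the mesentery. Atp6v0a1 held 12.9% to 27.1%, at 15.9, 29.1 and 14.4 against 10.3, 10.7 and 9.64. Atp6v0a4 was at most at 0.191. In OM 24h the share of Atp6v0a1 was the highest of the 6 libraries and that of Atp6v0a2 the lowest.

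**Figure D4:**
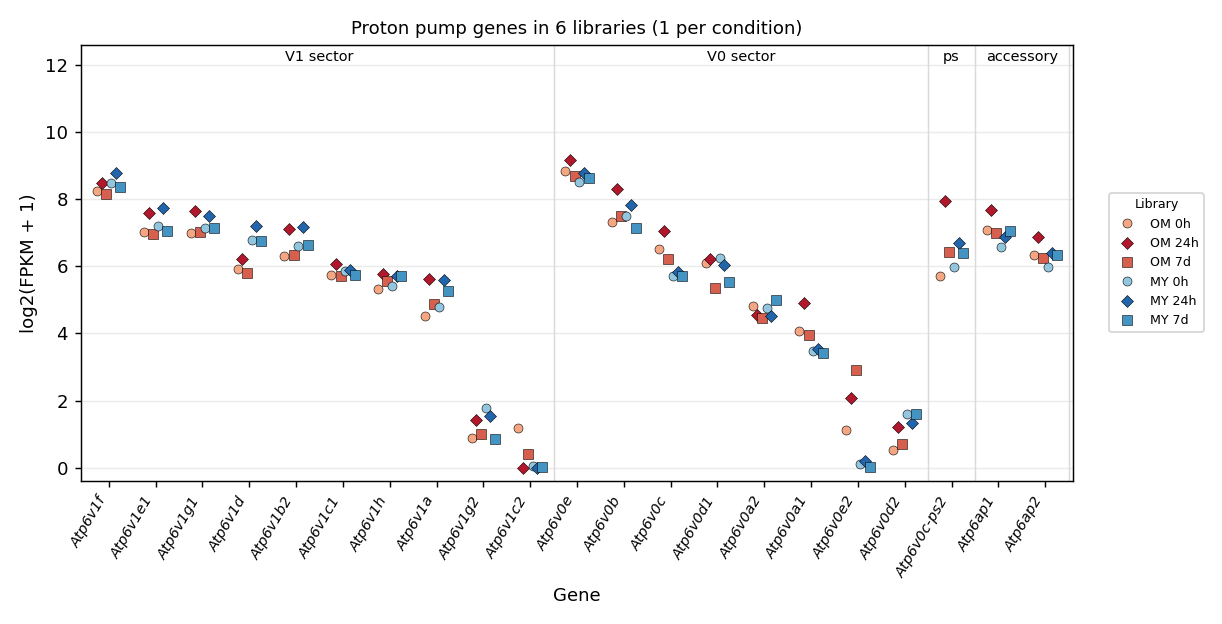
Level of each proton pump gene in the 6 libraries as log2(FPKM + 1), grouped into the V1 sector, the V0 sector, the pseudogene Atp6v0c-ps2 (ps) and the accessory genes; 1 point is 1 library, with no error bars. Most subunits lie close together across the libraries, Atp6v1d is lower in all 3 omental libraries, and Atp6v0c-ps2 has its highest point, 247 FPKM, in OM 24h.

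Comparisons that share a library, such as OM 0h, are not independent of each other, and each is given by its own values. Naive omental and mesenteric libraries were compared first. Of the 37 members, 7 were higher by 2-fold or more in OM 0h (background 8.18% of 13064 genes) and 2 lower (background 8.05%). With the libraries rescaled to a common sum the counts were 6 and 4 (background then 7.84% and 12.5%). The higher ones were Ctsg, Ctsc, Lamp2, Ctse, Ctso, Atp6v1c2 and Atp6v0e2, and the lower ones Ctsw and Atp6v0d2. Only Ctsc and Lamp2 of these had an FPKM above 50 in OM 0h, and they were 2.41 and 2.43 times as high as in MY 0h. The median log2 difference was 0.46 for the cathepsins and -0.15 for the pump, with 0.01 for all genes.

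The comparison of OM 24h with OM 0h had the most members apart, 14 of 37. Of these, 11 were at least 2-fold higher at 24 h (background 11.9%) and 3 lower (background 6.45%). Cathepsins made up 7 of the 11: Ctsl (log2 difference 2.79), Ctsd (2.27), Ctsb (2.09), Ctsf (1.76), Ctsa (1.45), Ctss (1.38) and Ctsc (1.27). Lamp1 (1.40) and Lamp2 (1.16) were also among them. The pump gave Atp6v0c-ps2 (2.24) and Atp6v1a (1.10). Lower at 24 h were Ctsw (-3.20), Ctsg (-2.39) and Atp6v1c2, which was listed at 0 there. With the libraries rescaled to a common sum, 9 members were higher (background then 10.7%) and 4 lower (background then 10.5%).

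The pump was higher at 24 h by small steps in nearly all of its genes. Of its 21 members, 19 were above their naive omental level, Atp6v0a2 and Atp6v1c2 being the exceptions. Among all 13064 genes, 6451 were above theirs. The median log2 difference was 0.54 for the pump and 1.01 for the cathepsins, against 0 for all 13064 genes. The quartiles of the log2 difference were 0.35 and 0.80 for the pump and -0.54 and 1.68 for the cathepsins. By sector, the summed FPKM was 1.39 times the naive one for V1, 1.42 times for V0 without the pseudogene and 1.48 times for the accessory genes.

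The 8 macrophage markers were also higher in OM 24h than in OM 0h. Their summed FPKM was 2120 in OM 0h, 12837 in OM 24h and 1226 in OM 7d, and 1317, 3313 and 1543 in the mesentery, and all 8 were highest in OM 24h. Relative to OM 0h the marker sum was 6.05 times as high in OM 24h, the cathepsin sum 2.52 times and the pump sum 1.51 times. Over the same pair the neutrophil sum was 2.32 times and the mesothelial sum 11.8 times as high. The NK and T cell sum was 0.0638 times and the B cell sum 0.228 times as high. Those of dendritic cells, mast cells and fibroblasts were 0.524, 0.0891 and 0.644 times as high. The part of cell composition in the member values was not tested.

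**Figure D5:**
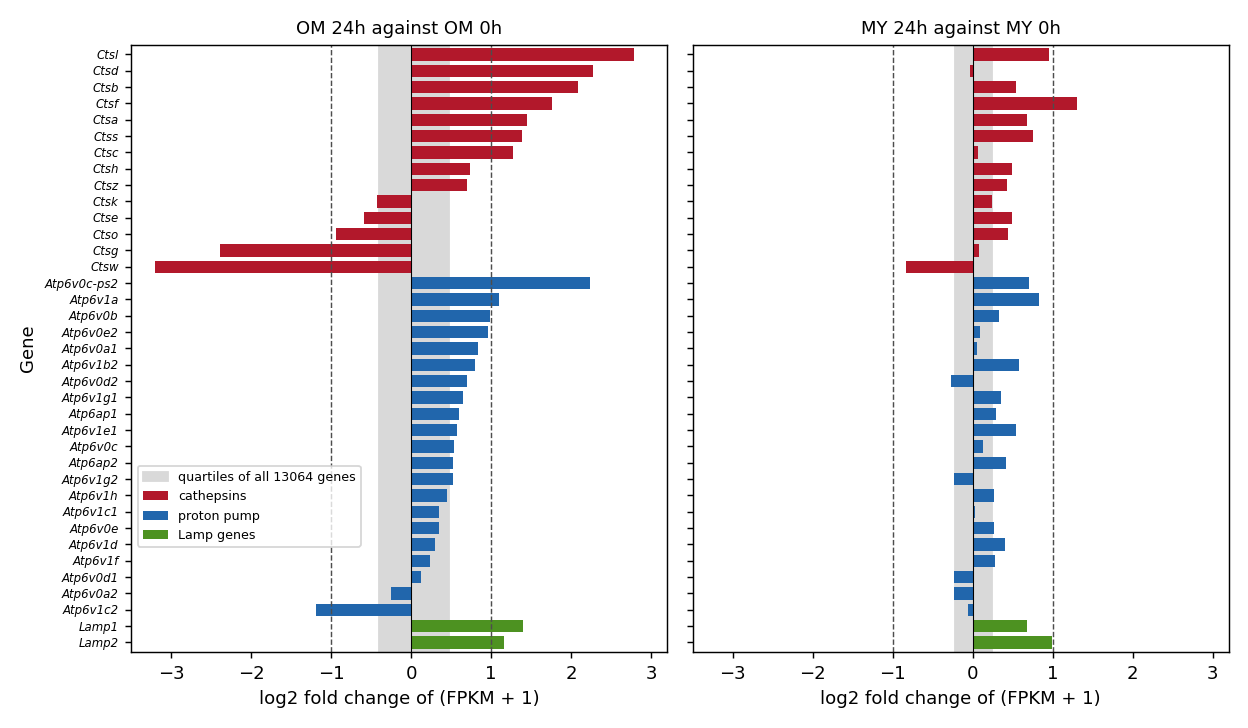
Log2 fold change of (FPKM + 1) of all 37 members at 24 h against the naive library of the same tissue, for the omentum (left) and the mesentery (right); dashed lines mark 2-fold, the grey band spans the quartiles of all 13064 genes, and each bar compares 1 library with 1 library. In the omentum 7 cathepsins, both Lamp genes and 2 pump genes pass the upper line, and in the mesentery Ctsf alone does.

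The mesentery at 24 h showed the same tissue-level order on a smaller scale. Of the 37 members, 1 was at least 2-fold higher in MY 24h than in MY 0h (background 2.8%), Ctsf at log2 1.30, and 0 were lower (background 1.52%). Lamp2 (0.99) and Ctsl (0.96) lay just under the threshold. The median was 0.47 for the cathepsins and 0.27 for the pump. Above their naive level were 12 of 14 cathepsins, 16 of 21 pump genes and 6575 of all 13064 genes. The cathepsin sum was 1.30 times and the pump sum 1.26 times the naive one, so that the 2 groups lay closer together than in the omentum. Whether the tissues differed in this was not tested.

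At 7 d, 32 of the 37 members in the omentum and 36 in the mesentery were within 2-fold of their naive level. Of all 13064 genes, 11376 and 12700 were. In OM 7d against OM 0h, 5 were at least 2-fold higher (background 11%) and 0 lower (background 1.96%). These were Ctsl (log2 2.07), Ctsf (2.02), Ctsg (1.48), Atp6v0e2 (1.80) and Ctsk (1.09). The median was -0.14 for the cathepsins and -0.08 for the pump, and both were slightly above 0 (0.01 and 0.07) with the libraries rescaled to a common sum. In MY 7d against MY 0h, 1 member was at least 2-fold higher (background 0.498%), Ctse at 1.37, and 0 lower (background 2.29%). The rescaled counts there were 1 and 1 (background then 0.697% and 3.24%). The cathepsin median was 0.33, and 9 of the 21 pump genes were above and 12 below their naive level. Of all 13064 genes, 6805 were above and 6113 below theirs.

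Set against MY 24h, 12 members were higher by 2-fold or more in OM 24h (background 13.9%) and 1 lower (background 10.2%). The higher ones were Ctsc (log2 2.47), Ctsl (1.97), Atp6v0e2 (1.88), Ctsb (1.69), Ctsd (1.67), Lamp2 (1.43), Ctss (1.38), Atp6v0a1 (1.36), Atp6v0c-ps2 (1.27), Atp6v0c (1.21), Ctsh (1.20) and Ctsg (1.19). Ctsw was lower (-5.31). After rescaling to a common sum the counts were 9 and 2 (background then 11.8% and 16.9%). Without rescaling the cathepsin median was 1.09, while that of the pump was 0.15, or -0.12 after rescaling. At 7 d, 5 members were higher in the omentum (background 14.1%) and 1 lower (background 4.99%). The medians then were 0.15 for the cathepsins and -0.06 for the pump. After rescaling the counts at 7 d were 5 and 3 (background then 15.3% and 6.53%).

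Across all 3 times, 7 members were higher in every omental than in every mesenteric library (background 16.7%): Ctsc, Ctsh, Ctsg, Lamp2, Atp6v0c, Atp6v0a1 and Atp6v0e2. In 3 every omental value was below every mesenteric one (background 17.7%), namely Ctsw, Atp6v1d and Atp6v0d2. With the libraries rescaled to a common sum there were 5 of these, and the share of all genes was not recomputed. Times of a tissue are not replicates, so no test was made. In the pump, 3 of the 8 V0 genes were in the first group and 0 of the 10 V1 genes, and 1 of each was in the second. Atp6v0c is in the first group by its own FPKM, but the sum of Atp6v0c and Atp6v0c-ps2 overlapped between the tissues, at 142 in OM 0h against 158 in MY 24h. The highest value of 21 of the 37 members was in OM 24h (56.8%), as was that of 2867 of all 13064 genes (21.9%). MY 0h held the lowest value of 14 members (37.8%), 9 of them cathepsins, and of 2072 of all genes (15.9%), ties included. Ctsg was listed at 0 in MY 7d as well.

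Genes that work beside the members were followed by lists. Of 34 lysosomal hydrolases, 10 were higher by 2-fold or more in OM 24h than in OM 0h (background 11.9% of all genes) and 0 lower (background 6.45%), with a median log2 difference of 0.65. The largest differences were those of Lgmn, the asparagine endopeptidase that also processes cathepsins, at FPKM 60.5 and 467, Acp2 at 8.16 and 43.2, and Pla2g15 at 20.2 and 83.2. Of 20 other lysosomal membrane genes, 5 were higher (background 11.9%) and 1 lower (background 6.45%), with a median of 0.75. Cd63 was at 64.0 and 490, Laptm4b at 7.60 and 49.5, and the metal transporter Slc11a1 at 43.6 and 209. Cd68, which is on this list, is also among the macrophage markers.

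The cathepsin inhibitors measured were cystatins and stefins, which act on cysteine cathepsins, and the serpins Serpinb1a and Serpinb6b, of a family that mainly inhibits serine proteases. Of 10 that met the minimum, 4 were higher by 2-fold or more in OM 24h than in OM 0h (background 11.9%) and 1 lower (background 6.45%), none of these 5 being a serpin. The cystatin Cst3, the most abundant, was at FPKM 2509 in OM 0h and 3987 in OM 24h, higher than any cathepsin in either library. Cstb was at 156 and 624, the stefin-like Gm5483 at 1.69 and 10.4, and Cst7 at 14.6 and 3.68. Of 10 genes for sorting and regulation, 3 were higher (background 11.9%) and 0 lower (background 6.45%), all 3 under an FPKM of 10. Among the more abundant ones Tfe3 was at 29.0 and 52.3, Nagpa at 44.0 and 75 and Tfeb at 67.2 and 54.5.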

How the data were processed

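RNA of sorted macrophages was sequenced in 6 libraries, 1 per tissue and time. Per the labels and methods, read quality was checked with FastQC 0.11.4 and alignment used STAR 2.4.2a, the mm9 build (NCBI37) and UCSC gene models. The deposited FPKM values, 1 per gene symbol and library, were made by the authors with Cufflinks. FPKM is scaled within a library to its mapped fragments, so 1 very abundant RNA lowers the others, and reads that fit several genes may be shared between them. The methods also describe read counts and DESeq2, which were not used here. Since FPKM are not counts and each condition had 1 library, no count model and no test was run. The methods give the reads per library only as a range, so the depth of a given library is unknown.

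Values were read with Python 3.11.15, numpy 2.4.6 and pandas 2.3.3, and figures drawn with matplotlib 3.10.9. Differences were computed on the log2(FPKM + 1) scale among genes that reached an FPKM of 1 in any library, and counted at 2-fold or more in 7 comparisons. The counting code alone was tested on simulated data, which says nothing about the spread between replicates. Members and lists were chosen with earlier results of these data known. Members given in full were those at least 2-fold apart at an FPKM of at least 10, the isoforms of each subunit, and the 3 highest of each role, and lists were described by counts with at most 3 named genes. Ctsk, Atp6v1d and Atp6v1h, the granule genes Elane and Mpo, Gzma, S100a8 and Cst3 were named after their values were seen. Gene positions and shared 75-base stretches come from GENCODE M1 on mm9, and promoters from RefSeq on GRCm38.p6. Ly6g and Csta were not found in the table. Alternatives tried were pseudocounts of 0.1 and 5, 2 rescalings of the libraries, 2 other filters, a 1.5-fold threshold, leaving out Ctsg and Ctsw, and, added after seeing the data, a pump list without Atp6v0c-ps2 and genes under an FPKM of 10.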

Additional observations from a re-analysis of the deposited data

Results flagged for a closer look

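A pair of cathepsins differed from their naive libraries in opposite directions in the 2 tissues, by at least 1.2-fold in each and at least 2-fold between them. Ctse at 24 h was lower in the omentum (log2 difference -0.58) and higher in the mesentery (0.49). Ctso at 24 h was lower in the omentum (-0.95) and higher in the mesentery (0.44), and at 7 d it was again lower in the omentum (-0.47) and higher in the mesentery (0.59). With 1 library per condition, the difference between the tissues was not tested.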

How the results depend on the processing

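No paired analysis was possible because the labels give each condition 1 library and so no shared replicate numbers, and no library could be left out. A fit that pairs the tissues by time would treat the times as replicates and was not made. Log2 values were taken as moved at 0.58 (the log2 of 1.5) or more, and counts beyond 1.5 times. Of 834 recomputed values 789 stayed within that and 45 moved, and no value of at least 2-fold reversed. The sign changed in 25 values, all of them under 2-fold. All medians of the cathepsins and the pump stayed within the limit, but some changed sign after rescaling to a common sum. The number of members at least 2-fold apart depended on the threshold and on low genes. At 1.5-fold it was 16 in OM 0h against MY 0h (15.2% and 15.4%) and 24 in OM 24h against OM 0h (20.8% and 16.5%). It was 9 in OM 7d against OM 0h (18.4% and 7.999%) and 9 in MY 24h against MY 0h (8.83% and 6.86%). It was 6 in MY 7d against MY 0h (4.06% and 7.85%) and 12 in OM 7d against MY 7d (20.4% and 11.8%). Percentages in brackets are the shares of all genes higher and lower at the same setting. A pseudocount of 5 gave 4 in OM 0h against MY 0h (4.26% and 3.65%). The same pseudocount gave 3 in OM 7d against OM 0h (4.45% and 0.903%). Against MY 0h it gave 0 in both MY 24h (1.06% and 0.574%) and MY 7d (0.222% and 0.873%). A pseudocount of 0.1 gave 2 in MY 24h (5.504% and 4.003%) and 3 in MY 7d (1.77% and 5.21%), both against MY 0h. With only genes at FPKM 1 or more in all 6 libraries the number was 5 in OM 0h against MY 0h (6.01% and 5.81%). It was then 2 in OM 7d against OM 0h (4.75% and 1.59%) and 3 in OM 7d against MY 7d (6.52% and 3.79%). Rescaling to a common sum gave 2 in MY 7d against MY 0h (0.697% and 3.24%). It gave 5 members, not 3, lower in every omental library, with the share of all genes not recomputed. After this rescaling the median of all genes was -0.19 in OM 0h against MY 0h and -0.17 in OM 24h against OM 0h. That median was 0.12 in OM 7d against OM 0h and -0.27 in OM 24h against MY 24h. Why these values moved was not tested beyond what each alternative changes by construction. Depth per gene is unknown, so values under about 1 FPKM (Ctsk, Atp6v1c2, Atp6v0d2, Atp6v0e2) are the least certain.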

Other observations

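Both motifs were also counted in the promoters of genes that work beside the members. The letters TCACGTGA were found in 3 of 16 lysosomal membrane genes with a promoter (18.8%: Clcn7, Cln3 and Mcoln1) and in 1 of 28 hydrolases (3.57%: Gla). CACGTG was found in 7 of the hydrolases (25%) and 4 of the membrane genes (25%). Among all genes with a promoter that met the FPKM minimum, the shares were 2.22% for TCACGTGA and 11.5% for CACGTG. At 7 d, 0 of the 34 hydrolases were at least 2-fold apart between OM 7d and OM 0h, where 11% of all 13064 genes were higher and 1.96% lower. The count was also 0 between OM 7d and MY 7d, where 14.1% of all genes were higher in the omentum and 4.99% lower.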
